A study of Homo sapiens with 8 samples.

Results

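The cytosolic ribosomal protein genes encode the proteins of the small (40S) and large (60S) ribosomal subunits and of the acidic P-stalk. They were taken from the skipped-exon tables by symbol (RPL and RPS genes with RPSA, RPLP0, RPLP1 and RPLP2, leaving out pseudogenes and the RPS6K kinases), so no measured value chose them. They gave 564 events of 123924 in the series, over 340 exons and 81 genes, of which 46 encode large subunit, 32 small subunit and 3 P-stalk proteins. MCF10A had 404 of these events in 79 genes and HMLE TWIST had 465 in 78 genes, with 305 events shared.

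RNA of 2 human breast epithelial cell lines was sequenced after 24 hours with 10 µM emetine or with its solvent DMSO, with 2 libraries in each of the 4 groups. MCF10A is a non-tumorigenic line. HMLE TWIST is an immortalised line that overexpresses the transcription factor TWIST from an integrated retroviral pBabe construct, and both its treated and its control cells carry it. The series concerns compounds that alter splicing through RNA G-quadruplexes. Nothing in the labels says that the lines are single clones, and the 2 replicates of a group are called biological.

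Ribosomal protein mRNAs are among the most abundant in growing cells, and most start with a run of pyrimidines, the 5′ terminal oligopyrimidine (TOP) motif, through which their translation follows nutrient signals. Several ribosomal protein genes are known to make an unproductive splice form, with a premature stop codon, that is removed by nonsense-mediated decay, a surveillance pathway that needs a translating ribosome. Emetine binds the 40S subunit near the mRNA exit region and blocks elongation.

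The unproductive forms were read from the reference transcripts. An event was matched to GENCODE 29 by gene, exon length and lengths of both introns, and a form is called a decay form where its reading frame stopped more than 50 nt before the last exon junction. Of the 564 events, 549 were placed, and both frames were read in 522. A decay form is used below only where none of its junctions is in the principal coding transcripts, since reads of other forms also count the main mRNA. This last rule was chosen after values had been seen. It left 29 events with a decay form made by including the exon, in 22 genes, and 80 made by skipping it, in 38 genes.

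The exons below make decay forms that are described with the results. Each is printed from its first base to 12 bases past the stop, which is in capitals, on the transcribed strand (sequences from GENCODE 29, coordinates from the deposited tables, build GRCh37). The RPS24 exon is printed whole because it begins with the stop codon of one RPS24 isoform and is no decay exon.
RPS9, 172-nt exon, chr19:54710421-54710592, plus strand: ccctcggaggTGAtgggtgtgaact
RPS27L, 187-nt exon, chr15:63448986-63449172, minus strand: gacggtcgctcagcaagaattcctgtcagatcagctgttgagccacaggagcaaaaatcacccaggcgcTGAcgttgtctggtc
RPL5, 154-nt exon, chr1:93299353-93299506, plus strand: TAGgtctagaattgg
RPL29, 85-nt exon, chr3:52028789-52028873, minus strand: cctgaagtgTAAccctctggtcag
RPL35A, 173-nt exon, chr3:197680359-197680531, plus strand: ctgggatTAAccccttggtgtc
RPS14, 163-nt exon, chr5:149824042-149824204, minus strand: agaagacggtgggcTAGatgtcagaacct
RPS18, 158-nt exon, chr6:33243277-33243434, plus strand: TAGagacagggtttc
RPS24, 22-nt exon, chr10:79799962-79799983, plus strand: TGAgctggagattggatcacag

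Junction reads summed over events, which count some reads more than once, were 78412292 to 91259363 per library. Ribosomal protein events took 16.9% and 17.2% of them in the DMSO libraries of MCF10A, and 10.9% and 11.6% in its emetine libraries. For HMLE TWIST the shares were 13.4% and 14.4% with DMSO, then 10.8% and 11.6% with emetine. Their median event had 18092 to 31097 reads, and the median event of all genes 202 to 308. Markers were checked by junction depth. Of 8 epithelial markers, MCF10A listed 6, with summed levels of 34669 to 35475 in the controls, while HMLE TWIST listed CDH1, ESRP1 and ESRP2, whose sum was 1.09 to 3.51 with DMSO and 5.55 to 11.03 with emetine. The other 5 had no event in HMLE TWIST, which does not measure their level. With emetine the MCF10A sum was 22076 to 22749. Within it KRT17 rose from 3607 and 3232 to 5981 and 7053, while the other listed epithelial markers fell. The mesenchymal markers summed to 176133 to 176664 with DMSO and 77493 to 82290 with emetine in HMLE TWIST, and to 15284 to 16783, then 3298 to 3666, in MCF10A. The part of these changes in the results below was not tested. Further, the blood marker PTPRC and endothelial marker PECAM1 were at 1.17 or less or not listed.

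Of the tested decay forms of ribosomal protein genes, 17 of 41 rose under emetine in MCF10A and 21 of 51 in HMLE TWIST (41.5% and 41.2%), against 46.7% and 46.6% over all genes. The others did not pass, and none fell past the test (over all genes 2.27% and 4.57% of forms made by inclusion fell in MCF10A and HMLE TWIST, and 2.75% and 2.22% of those made by skipping). The read filter summed the rarer form over the DMSO and emetine libraries. Of the forms that rose, 3 in MCF10A and 1 in HMLE TWIST had at most 3 reads in both control libraries together. Those forms were tested only through their emetine reads and could hardly have fallen. In MCF10A 11 of 17 tested decay forms made by inclusion rose, and in HMLE TWIST 14 of 20, with adjusted p-values under 0.05 in the quasi-binomial model. Over all genes 54.9% of such forms rose in MCF10A and 45.7% in HMLE TWIST. The 14 in HMLE TWIST include the 339-nt exon of RPL10A. Its event shares a junction with an ordinary exon and does not measure the decay form alone. Of decay forms made by skipping, 6 of 24 rose in MCF10A and 7 of 31 in HMLE TWIST, where the background shares were 41.8% and 47.1%. By limma on the log2 odds, 7 of 41 decay forms of ribosomal protein genes rose in MCF10A and 13 of 51 in HMLE TWIST. Over all genes limma passed 3315 of 9091 and 4378 of 10726 as higher. The levels were low: the median tested decay form of a ribosomal protein gene made up 0.0711% of its event in the MCF10A controls and 0.143% under emetine, and the same values were 0.0589% and 0.140% in HMLE TWIST. Over all genes they were 1.03% and 3.94% in MCF10A and 0.952% and 3.97% in HMLE TWIST. Testing required 10 reads of the rarer form, so the deeply read ribosomal protein events could be tested at far lower levels than most events. The medians of the members and of all genes are therefore not on an equal footing. Among the mitochondrial ribosomal protein genes, 22 of 26 decay forms by inclusion rose in MCF10A and 16 of 29 in HMLE TWIST, with 2 lower in the latter. These tests rest on the emetine replicates: without either emetine library no event of any gene passed. With all libraries kept, limma on the log2 odds called 7 decay forms higher in MCF10A and 13 in HMLE TWIST. The quasi-binomial model called 17 and 21 there.

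RPS9, a small subunit protein whose gene is known for unproductive splicing, had the largest rise in percentage points. The 172-nt exon, joined to the exon ends at 54710330 and 54711266, is in a transcript annotated for nonsense-mediated decay. MCF10A included it at 4.47% and 5.55% with DMSO, and at 23.5% and 22.6% with emetine. HMLE TWIST included it at 1.36% and 1.85% with DMSO, and at 35.3% and 33.8% with emetine. In both lines the emetine libraries lay far above the controls, with no overlap. The mean rose from 5.01% ± 0.763 to 23.1% ± 0.632 (SD, n = 2) in MCF10A, 4.61-fold (adjusted p = 5.53e-10, quasi-binomial model; limma 0.023). It rose from 1.61% ± 0.347 to 34.5% ± 1.09 (SD, n = 2) in HMLE TWIST, 21.5-fold (adjusted p = 5.38e-08; limma 0.0113). The order of the groups was HMLE TWIST control, MCF10A control, MCF10A emetine and HMLE TWIST emetine, and no neighbours overlapped. The rise was 14.8 percentage points larger in HMLE TWIST (interaction adjusted p = 2.76e-21), but limma did not pass it (adjusted p = 0.146). Of 154 ribosomal protein events tested for such a difference 10 passed, 5 toward higher and 5 toward lower inclusion in HMLE TWIST, against 4.67% of all events (1.5% higher and 3.16% lower). With at least 10 points 2 passed, both in RPS9, against 2.81%. A second event of the same exon, joined to the exon end at 54705477, shares its downstream junction, so the pair is not independent. Its mean rose to 93.9% ± 0.242 from 78.9% ± 6.02 in MCF10A, and to 95.1% ± 0.0117 from 42.9% ± 6.37 in HMLE TWIST (SD, n = 2).

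**Figure D1:**
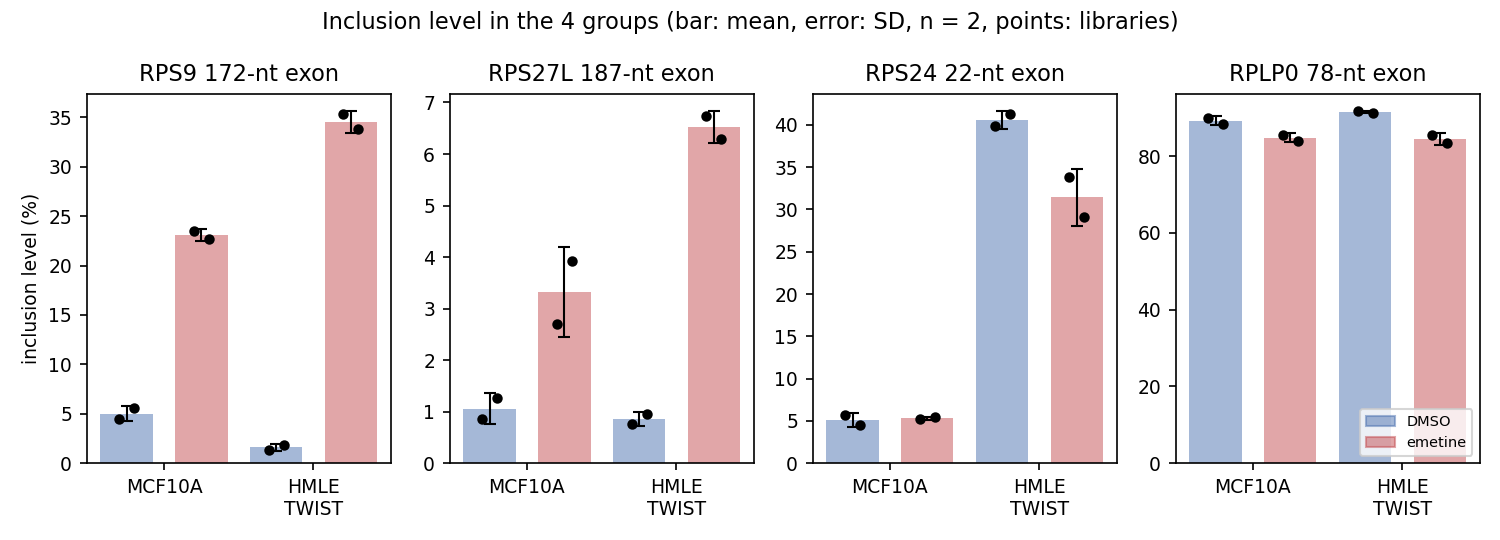
Inclusion level in percent (y axis) of 4 exons in the 4 groups; bars are means, error bars the SD of 2 libraries and points the libraries. The RPS9 and RPS27L decay exons were higher under emetine in both lines, the RPS24 exon differed between lines, and the RPLP0 exon was lower under emetine in both. The RPLP0 event shares junctions with that of a longer exon and does not measure the plotted exon alone.

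These 2 RPS9 events were the only ribosomal protein events in MCF10A that changed by at least 10 percentage points with an adjusted p-value under 0.05, out of 186 tested in 62 genes, a rule that 13.0% of all tested events met. In HMLE TWIST 4 of 209 events in 64 genes met it, against a background of 14.0%. They were both RPS9 events, the 339-nt exon of RPL10A and the 98-nt exon of RPL17. Without the threshold on size, 40 ribosomal protein events passed in MCF10A (16 higher and 24 lower inclusion; 33.4% of all events passed) and 54 in HMLE TWIST (18 and 36; 35.7%). The median absolute change of the tested members was 0.0408 percentage points in MCF10A and 0.0519 in HMLE TWIST, against 2.39 and 2.55 over all tested events. Deeply read events pass the read filter at much lower levels of the rarer form, so these medians are not on an equal footing. The filter on low values left out 218 of 404 and 256 of 465 member events, nearly all because the rarer form had under 10 reads.

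Other small subunit genes followed at lower levels. Apart from RPS9 they were chosen after their values were seen, as the decay forms that passed in both lines, with RPS2 added as one that was tested in HMLE TWIST only. RPS27L is a paralog of the zinc-finger protein gene RPS27 that responds to p53. Its 187-nt exon, which GENCODE lists in a coding transcript, read 0.853% and 1.27% in MCF10A with DMSO, then 2.70% and 3.93% with emetine. In HMLE TWIST it was at 0.753% and 0.945%, then 6.74% and 6.30%. The groups did not overlap in either line. The mean rose 3.13-fold in MCF10A (adjusted p = 0.000644, limma 0.0708) and 7.68-fold in HMLE TWIST (adjusted p = 1.16e-05). For RPS27 itself the 121-nt exon read 0.865% and 0.973% in MCF10A with DMSO, then 1.87% and 1.82% with emetine. HMLE TWIST gave 0.659% and 0.807%, then 1.68% and 1.84%, so it rose about alike in both lines, 2.01-fold and 2.40-fold (adjusted p = 1.29e-06 and 8.39e-05; limma 0.132 and 0.0857).

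The 97-nt exon of RPS15A, a small subunit protein gene, rose 1.61-fold in MCF10A (adjusted p = 0.00304; limma 0.285; 0.0569 with its own dispersion) and 1.72-fold in HMLE TWIST (adjusted p = 0.00485; limma 0.232). RPS18 lies in the head of the small subunit. Its 158-nt exon rose in MCF10A, where DMSO gave 0.143% and 0.164% and emetine 0.297% and 0.207% (adjusted p = 0.00925; limma 0.295; 0.0945 with its own dispersion). It rose in HMLE TWIST too, where DMSO gave 0.0283% and 0.0391% and emetine 0.164% and 0.134% (adjusted p = 0.000223; limma 0.0307). RPSA, the laminin receptor homologue of the 40S subunit, made a decay form by skipping its 134-nt exon. MCF10A gave 0 and 3 reads of that form with DMSO, then 12 and 12 with emetine. In HMLE TWIST it had 8 and 10 reads, then 87 and 112, a 15.7-fold rise to 0.962% ± 0.0794 (SD, n = 2). The 187-nt exon of RPS2 rose 3.04-fold in HMLE TWIST, from 0.108% and 0.144% to 0.378% and 0.389%.

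Among large subunit genes, the 86-nt exon of RPL8, whose protein lies by the peptidyl transferase centre, read 0.103% and 0.122% in MCF10A with DMSO, then 0.708% and 0.739% with emetine. It read 0.0320% and 0.0293%, then 0.687% and 0.629%, in HMLE TWIST. It rose 6.44-fold and 21.4-fold, to nearly the same level. RPL5 binds 5S rRNA and MDM2 with RPL11 and is mutated in Diamond-Blackfan anaemia. Its 154-nt exon rose 3.84-fold, to 0.313% and 0.291%, in MCF10A and 9.75-fold, to 0.263% and 0.202%, in HMLE TWIST. The 85-nt exon of RPL29 rose 4.20-fold and 7.87-fold. The 173-nt exon of RPL35A rose 5.37-fold in MCF10A, from 5 and 10 reads with DMSO (adjusted p = 0.00636; limma 0.0628), and 2.18-fold in HMLE TWIST (adjusted p = 0.0151; limma 0.117). Its MCF10A change of 0.0653 points was 0.0349 without the first emetine library. In all, 38 decay forms were tested in both lines, and 11 of them (28.9%), each in a different gene, rose in both, against 38.6% of all decay forms tested in both lines.

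**Figure D2:**
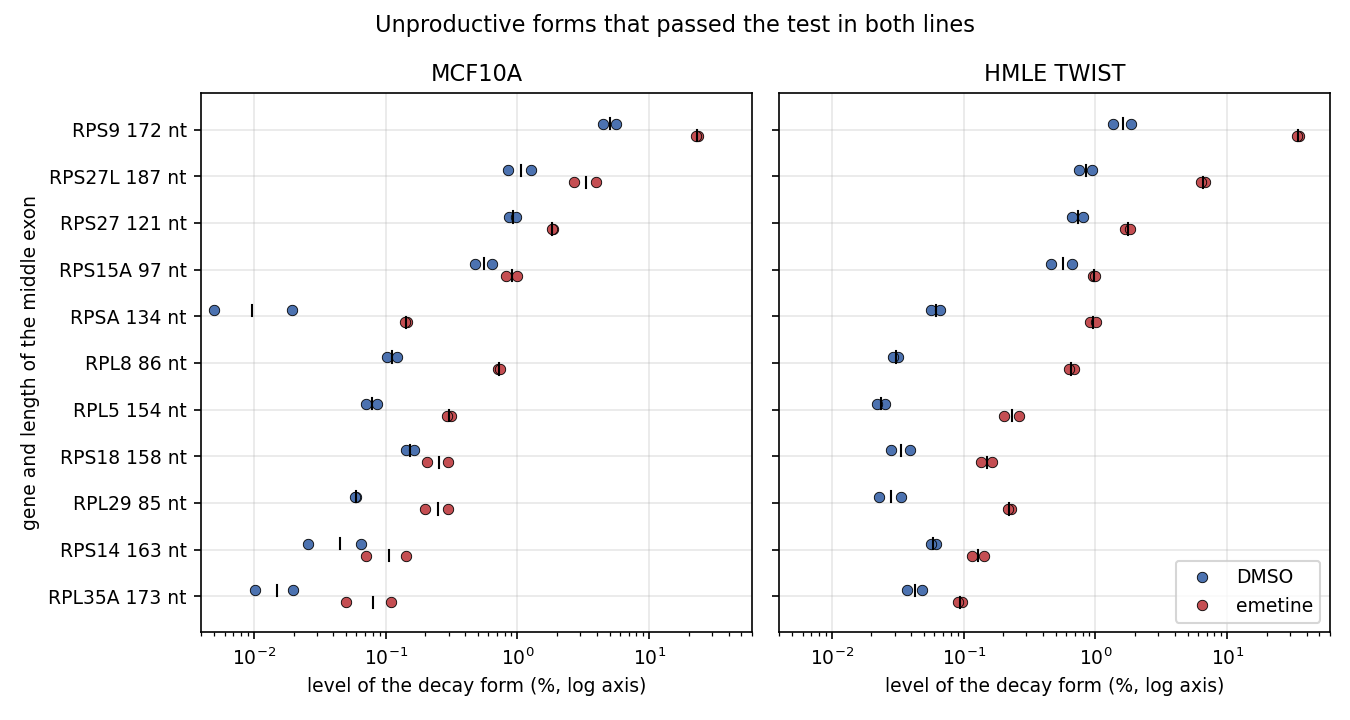
Level of the decay form in percent of its event (log axis) for the 11 forms that passed in both lines; points are libraries, short bars means, and a level of 0 is drawn at 0.005. The emetine libraries lie above the controls in every row, and RPS9 reaches the highest level in both lines.

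**Figure D3:**
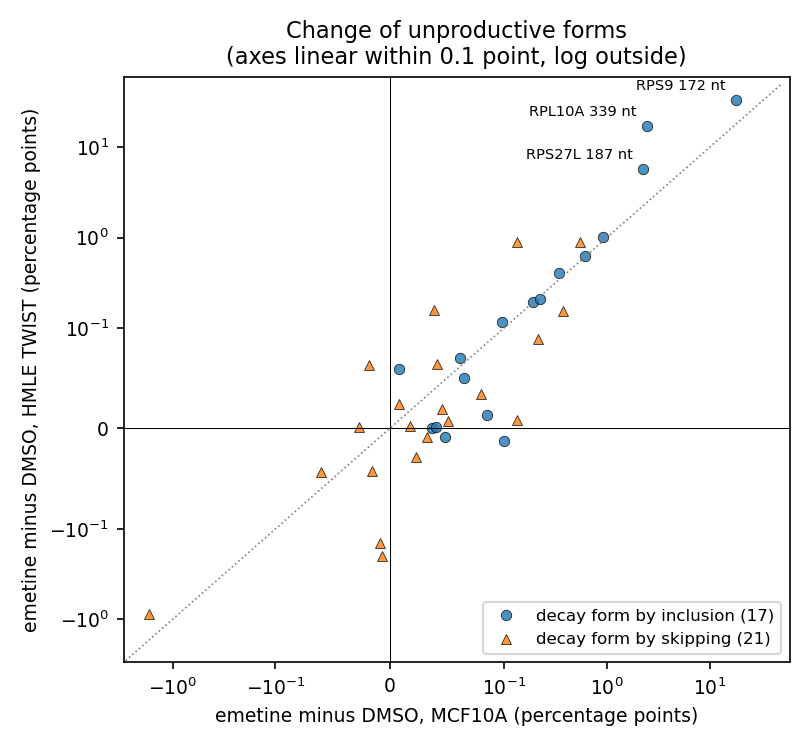
Change of each decay form tested in both lines, MCF10A on the x axis and HMLE TWIST on the y axis, in percentage points; circles are made by inclusion (17) and triangles by skipping (21), and the dotted line marks equal change. RPS9 and RPS27L lie above that line, with rises of 32.9 and 5.67 points in HMLE TWIST, as does RPL10A (17.0), whose event shares a junction with an ordinary exon and does not measure the decay form alone.

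In 10 genes listed as known for unproductive splicing, 9 of 41 tested events passed in MCF10A and 12 of 47 in HMLE TWIST, where 33.4% and 35.7% of all events passed. Of their decay forms 5 of 12 and 5 of 16 rose, against 46.7% and 46.6% over all genes. Their depth fell in 10 and 9 of the 10 genes, against 33.9% and 27.8% of all genes. The most read event of RPL3, a 96-nt exon, had a mean inclusion of 99.8% with DMSO and 99.7% with emetine in MCF10A (adjusted p = 0.0107; limma 0.262). The means were 99.4% and 99.1% in HMLE TWIST (adjusted p = 0.0144; limma 0.278). The 170-nt exon of RPS13 was skipped in 0.0947% and 0.101% of its event under emetine in HMLE TWIST, against 0.0370% and 0.0293% (adjusted p = 0.0425). RPL30 encodes a protein known to repress its own splicing in yeast. The skipped form of its 146-nt exon rose 1.66-fold in MCF10A (adjusted p = 0.022, limma 0.240). That form was at 0.106%, 0.147%, 0.136% and 0.134% in HMLE TWIST. The most read events of RPL12 and RPL13A were at 99.9% or above in every library of both lines and did not pass. RPL10A, another gene of that list, had a 339-nt exon at 78.1% and 86.7% in HMLE TWIST with DMSO, then 99.3% and 99.4% with emetine (adjusted p = 0.00076; limma 0.0113). Its upstream junction is shared with the ordinary 81-nt exon of the gene, so its level does not measure the longer exon alone. In MCF10A it was at 96.7% and 97.6%, then 99.7% and 99.4%. There the quasi-binomial model did not pass it (adjusted p = 0.0676) and limma did (adjusted p = 0.0345).

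In genes of proteins around the emetine site, 3 of 10 tested events passed in MCF10A and 3 of 13 in HMLE TWIST, against 33.4% and 35.7% of all events. Depth fell in 3 of 3 and 2 of 4 genes, against 33.9% and 27.8% of all genes. RPS14, which lines the site, had a 163-nt decay exon that rose in MCF10A, where DMSO gave 0.0646% and 0.0259% and emetine 0.142% and 0.0713% (adjusted p = 0.0474; limma 0.228; 0.269 with its own dispersion). In HMLE TWIST DMSO gave 0.0617% and 0.0561% and emetine 0.115% and 0.143% (adjusted p = 0.0277; limma 0.113). The main 151-nt exon of RPS14 (adjusted p = 0.701 in MCF10A and 0.337 in HMLE TWIST) and the 110-nt exon of RPS3A (adjusted p = 0.0788 and 0.264) did not pass. RPS26 had no event in the MCF10A table.

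Inclusion fell in genes whose change did not make a decay form. The 98-nt exon of RPL17, a protein of the peptide exit tunnel, lies in the 5′ UTR. In MCF10A its named event gave 32.6% and 32.6% with DMSO, then 23.9% and 24.2% with emetine. It was at 33.2% and 31.5%, then 22.0% and 17.6%, in HMLE TWIST, and the groups did not overlap in either line. It fell by 8.61 points (adjusted p = 0.000763; limma 0.302) and fell by 12.5 points (adjusted p = 0.00171; limma 0.162). With DMSO, other events of the same exon read 21.5% and 22.3%, and 8.37% and 8.53%, in MCF10A. They read 16.5% and 17.3%, and 7.51% and 7.45%, in HMLE TWIST. The values above are thus those of the named event. RPLP0, named after its values were seen, anchors the P-stalk, which recruits elongation factors. Its 78-nt exon was at 90.0% and 88.4%, then 85.6% and 84.0%, in MCF10A and at 91.6% and 91.2%, then 85.5% and 83.4%, in HMLE TWIST, without overlap. It fell by 4.43 points (adjusted p = 0.000164; limma 0.348) and fell by 6.98 points (adjusted p = 4.97e-05; limma 0.149). This event shares an inclusion junction and the skipping junction with that of a 186-nt exon. Its level thus does not measure the 78-nt exon alone.

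The 22-nt exon of RPS24, a small subunit gene with known alternative splicing at its 3′ end, separated the lines. With DMSO it read 5.66% and 4.49% in MCF10A and 39.8% and 41.3% in HMLE TWIST, a difference of 35.5 points (adjusted p = 2.41e-86; limma 0.0705). Emetine libraries were at 5.20% and 5.43% in MCF10A, within the spread of the controls, and at 33.8% and 29.1% in HMLE TWIST, below them (adjusted p = 0.00158; limma 0.351). In DMSO 55 of 176 ribosomal protein events differed between the lines with an adjusted p under 0.05 (14 higher and 41 lower in HMLE TWIST), against 15.6% of all events (4.8% higher and 10.8% lower). With a difference of at least 10 points there were 3, RPS24, the RPS9 event joined to 54705477 (35.9 points lower in HMLE TWIST) and the RPL10A 339-nt exon (14.8 points lower), against 6.49% of all events; limma passed none of them. The line and its table cannot be told apart.

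The level of these genes was read from junction depth, the reads of each gene's most read event, scaled by median-of-ratios size factors. This stands in for expression, since it counts reads at 1 place of a gene. The event was picked within each line, so that place can differ between the lines. Fewer cells and less RNA per cell cannot be told apart in such bulk libraries. Depth fell in 74 of 79 genes in MCF10A and in 66 of 78 in HMLE TWIST (limma voom, adjusted p under 0.05). Over all genes it fell in 33.9% and 27.8%. Of the 76 ribosomal protein genes measured in both lines 64 fell in both, and the share of all genes that did so is not given here. The median log2 change was -0.64 in both lines, against 0.00 and 0.01 over all genes. Median-of-ratios scaling itself holds the median gene near no change. Scaled to total reads the median of all genes moved to 0.24 and 0.43, and that of ribosomal protein genes to -0.41 and -0.23. With that scaling 67 of 79 ribosomal protein genes were lower in MCF10A and only 30 of 78 in HMLE TWIST. Over all genes 2936 of 11251 and 1783 of 11337 were lower. The subunits were alike, with medians of -0.66 (small) and -0.60 (large) in MCF10A and -0.63 and -0.64 in HMLE TWIST. Mitochondrial ribosomal protein genes had medians of 0.05 and 0.08, and translation factors of -0.43 in both lines.

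**Figure D4:**
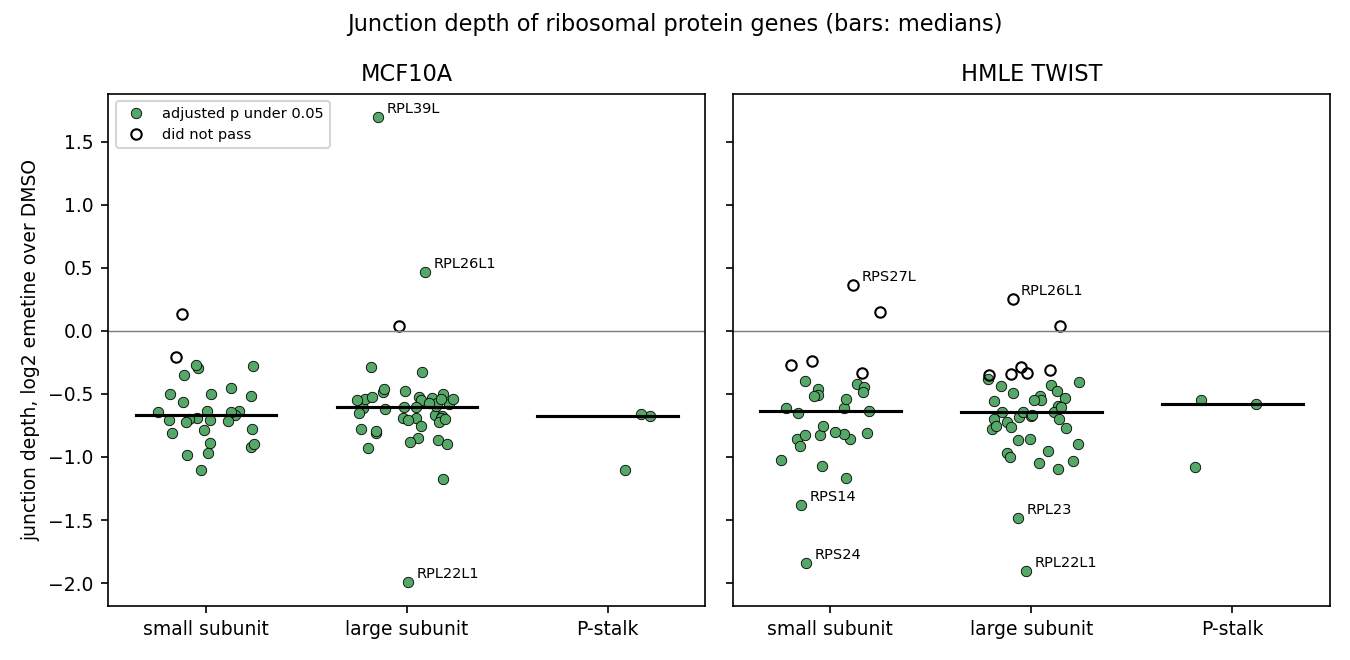
Log2 change of junction depth (y axis) of each ribosomal protein gene by subunit in both lines; filled points passed limma voom at an adjusted p under 0.05 and bars are medians. Most genes lie below 0, with RPL22L1 lowest in both lines and RPL39L highest in MCF10A.

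RPL22L1, the paralog of RPL22, fell most. MCF10A gave 4460 and 5971 scaled reads with DMSO, then 1311 and 1279 with emetine, and HMLE TWIST gave 5291 and 4849, then 1254 and 1459 (log2 -1.99 ± 0.14 and -1.91 ± 0.20, SE). RPS24 had 14991 and 16547, then 7005 and 7712 scaled reads in MCF10A (-1.10 ± 0.10, SE). In HMLE TWIST it had 24955 and 21727, then 7109 and 5912 (-1.84 ± 0.18, SE). RPL31 (-1.17), RPLP0 (-1.11) and RPS14 (-0.98) followed among the largest falls in MCF10A, and RPL23 (-1.49) and RPS14 (-1.38) in HMLE TWIST. RPS14, at the emetine site, thus fell in both. Only 2 genes rose, both in MCF10A and both paralogs, RPL39L from 50 and 43 scaled reads to 157 and 144 (1.70 ± 0.28, SE; adjusted p = 0.000371) and RPL26L1 from 2275 and 2318 to 3132 and 3227 (0.47 ± 0.10, SE; adjusted p = 0.00168). Neither passed in HMLE TWIST, at 0.04 and 0.25. RPS9 changed by -0.28 in MCF10A (adjusted p = 0.0327) and by 0.15 in HMLE TWIST (adjusted p = 0.452). Per length, RPL39L was lowest (29.9 reads per 99 nt in the control) and RPL13A highest (63251) in MCF10A, and RPS2 was highest (79487) in HMLE TWIST.

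The start sites are shown because these genes moved together. In the RefSeq promoter table (GRCh38.p14) 65 of the 81 genes had an entry, and 46 of the 65 (70.8%) had a start with C followed by 4 pyrimidines (C or T, on the gene's strand), against 5.14% of all genes with an entry. Bases from 15 before to 15 after the start are printed below, with the first 5 transcribed bases in capitals.
RPS24, plus strand: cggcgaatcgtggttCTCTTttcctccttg
RPS14, minus strand: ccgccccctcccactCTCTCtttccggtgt
RPS9, plus strand: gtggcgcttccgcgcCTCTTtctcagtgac
RPLP0, minus strand: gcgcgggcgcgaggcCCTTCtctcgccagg
RPS27L, minus strand: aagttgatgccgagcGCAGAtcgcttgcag
RPL26L1, plus strand: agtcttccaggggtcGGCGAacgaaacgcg
In MCF10A depth fell in 44 of 45 genes with such a start and in 15 of 18 without, with medians of -0.68 and -0.58. In HMLE TWIST it fell in 40 of 45 and 14 of 18, with medians of -0.68 and -0.54. The paralogs RPS27L, RPL26L1 and RPL7L1, all without it, were not called lower in either line, unlike most genes without it.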

How the data were processed

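Messenger RNA with poly(A) tails was sequenced in stranded paired-end libraries, per the labels' protocols. Reads were aligned with STAR 2.5.3a to GRCh37, per the submitters' processing notes; the rMATS version and annotation release are not given in the sources used here. The authors deposited, per the file headers, a skipped-exon table per line with junction read counts of the inclusion and skipping forms, the replicates of a group joined in a cell, together with rMATS p-value and FDR columns and an inclusion difference score. The table names give the control before emetine, so sample 1 was read as DMSO. The 4 columns of deposited inclusion levels per replicate were not used. The score and p-value columns of the authors' deposited table enter only 1 alternative.

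Inclusion levels were recomputed as length-corrected inclusion reads (skipping form: 99 nt) over the sum of both forms. Events with at least 20 reads in every library and 10 of the rarer form were fitted with a quasi-binomial logistic model (R 4.3.3) over the whole table. Dispersions were moderated with limma 3.58.1 (squeezeVar) and floored at 1, the F test was two-sided, and p-values were Benjamini-Hochberg adjusted over all events. The alternative was limma on log2 odds with 0.5 reads added. Because the cells hold pairs and not plain counts, the planned edgeR test of junction depth was replaced by limma voom with size factors, on genes with at least 10 reads in 2 libraries, and the planned DESeq2 alternative was not run. The fits were tested on simulated data.

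Named exons were those called in any comparison and the most read event of genes listed as known for unproductive splicing or near the emetine site; exons added later are marked. Some results that this rule names are not reported here. For depth, the 5 largest called changes each way and the extreme levels were named. Members, lists and tests were chosen with earlier results of these data known. The labels do not say that replicates came from separate cultures beyond calling them biological. With 2 libraries per group, p-values rest on dispersion shared across events, and events of a gene share reads. Processed pseudogene copies could take reads of ribosomal protein genes.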

Additional observations from a re-analysis of the deposited data

Results flagged for a closer look

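The response to emetine differed between lines in 10 of 154 ribosomal protein events tested for it (interaction term of the quasi-binomial model, adjusted p under 0.05), a rule met by 4.67% of all events. limma passed none of the 10, and 17 member events had an unadjusted limma p under 0.05. The difference is the HMLE TWIST change minus the MCF10A change, in percentage points. The RPS9 172-nt exon gave 14.8 and, in the event joined to 54705477, 37.1. The RPS27L 187-nt exon gave 3.42 (adjusted p = 0.0257). The RPS24 22-nt exon gave -9.38 (adjusted p = 0.000817), with changes of 0.245 in MCF10A and -9.13 in HMLE TWIST. The RPLP0 78-nt and 186-nt exons, which share junctions, gave -2.55 and -1.40. In RPS2 the 713-nt and 90-nt exons gave -1.07 and -0.644. For the RPL8 86-nt exon the difference was 0.0163 and for the RPS18 158-nt exon 0.0173; the test is on the odds scale, and in points RPL8 rose by 0.611 in MCF10A and 0.627 in HMLE TWIST and RPS18 by 0.0982 and 0.116.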

How the results depend on the processing

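With 2 libraries a group, the number of calls depended on the test. Under limma on log2 odds, the counts in HMLE TWIST were 13 decay forms higher (21 in the reported fit), 10 events higher (18) and 14 lower (36), and in MCF10A 7 (17), 7 (16) and 7 (24); the line by emetine and DMSO line comparisons went to 0. A replicate block by position in the cell, which carries no replicate number, took the emetine and DMSO line counts to 0 (members at unadjusted p under 0.05 were 25 in MCF10A and 33 in HMLE TWIST), while limma with that block passed 7 and 23 members. It gave 1 higher depth call in HMLE TWIST against 0. Correlations of paired deviations in MCF10A and HMLE TWIST were 0.0177 and 0.00667 for inclusion and 0.0570 and 0.288 for depth. A threshold of 0.2 left 2 changed events in HMLE TWIST, 0 in MCF10A and 1 for the line by emetine term; with 1 event per exon each comparison kept 1. The authors' deposited FDR gave 4 in MCF10A against 2. For the line by emetine term an event's own dispersion gave 3 higher and 0 lower, against 5 and 5, and a dispersion trend, added after seeing the data, 2 lower; a single shared dispersion, also added, gave 1 lower decay form in MCF10A. Scaling to total reads, added too, gave 30 lower and 4 higher depth calls in HMLE TWIST and 4 higher in MCF10A, and turned RPL7L1 in HMLE TWIST to 0.13. Leaving out 1 library in turn gave, in HMLE TWIST, 0 to 4 changed events, 0 to 17 decay forms higher, 0 to 16 events higher, 0 to 22 lower, 40 to 70 depth calls lower and 0 to 2 higher. In MCF10A it gave 0 to 2, 0 to 15, 0 to 15 and 0 to 19 for the exon counts, for the line by emetine term 3 to 6 higher and 1 to 7 lower, and for DMSO 3 to 10 higher and 11 to 23 lower. The counts of 0 for emetine exon comparisons came without an emetine library. Small changes that had not passed turned sign: in MCF10A RPL10A 81-nt (-0.0208 to 0.00759 points), RPL5 70-nt (-0.0913 to 0.105), RPS14 151-nt (-0.00883 to 0.0245) and RPS24 22-nt (-0.340 to 0.829), and in HMLE TWIST RPL13A 66-nt (-0.00929 to 0.00071), RPL30 146-nt (-0.0293 to 0.0115), RPS3 131-nt (-0.0392 to 0.0569) and RPS9 123-nt (-0.117 to 0.118). So did depth of RPL7L1 (-0.0205 to 0.140) and RPS27L (-0.00335 to 0.223) in MCF10A and RPL39L in HMLE TWIST (-0.0655 to 0.145). The cause was not tested. The planned DESeq2 alternative was not run.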
